A study of Mus musculus with 16 samples.

Results

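Interferon-stimulated genes are genes whose transcription rises when a cell is exposed to interferon, and 41 of them were followed here across the cerebral cortex of irradiated and sham-exposed mice. They were chosen by name, as genes widely used to read an interferon response, and with earlier results of these data known. Each was measured by every array probe whose RefSeq accession belonged to it. The array carried 56 probes of 39 of these genes, and 51 probes of 38 genes passed the filter on dim probes, which asked for a signal well above background on 4 or more of the 16 arrays. Oas3, an oligoadenylate synthetase, had 1 probe, which was above background on 0 arrays, and no probe was matched to Mx1 or Mx2, the myxovirus resistance GTPases. The statements below on measured members concern the 38, of which 37 were above background on all 16 arrays. The exception, Epsti1, passed the filter through 2 arrays of each knockout group alone.

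Type I interferons bind a receptor on most cells and activate a transcription factor complex that binds a DNA element called the interferon-stimulated response element. Interferon gamma acts through another element, the gamma-activated site. The induced proteins degrade viral RNA, block virus entry and release, conjugate the ubiquitin-like protein ISG15, and feed back on the pathway, and in brain they are made by microglia, endothelium, neurons and other cells.

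The mice were males on a C57BL/6 background, either wild-type littermates or Neil1-/- (called knockout here), and were 28 to 42 weeks old. NEIL1 starts base excision repair by cutting oxidised bases out of DNA. Irradiated mice of both genotypes received 6 Gy of whole-body gamma radiation at 0.74 Gy/min, and sham mice were placed in the same box without radiation. Per the protocols, BrdU, a thymidine analogue taken up by dividing cells, was given by injection (100 mg/kg) before exposure and again 2 h after it. Cortex was taken 20 h after exposure from 4 mice in each of 4 groups, wild-type sham, irradiated wild type, knockout sham and irradiated knockout, and total RNA of each mouse was hybridised to 1 single-colour Agilent array. Every level below is a log2 processed signal minus the 75th percentile of its array, and 4 values in a row are replicates 1 to 4 of a group.

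The 75th percentile lay between 2078 and 2725 intensity units in wild-type sham, 1976 and 2510 in irradiated wild type, 1513 and 2240 in knockout sham, and 1075 and 1766 in irradiated knockout. Any 2 arrays correlated across the 17436 genes tested with r of 0.972 or more. Wild-type arrays lay on 1 slide and knockout arrays on another, so genotype and slide cannot be told apart, and within a slide the sham and irradiated arrays lay in different rows, so treatment and row cannot be told apart either. The replicate number of an array was its column on the slide in all 4 groups. The Neil1 probe was brighter on the arrays labelled knockout, by 1.27 in sham and 1.39 after irradiation (limma adjusted p = 0.0246 and 0.00725). With the position of this probe relative to the deletion not given in the sources used here, it did not check the labels, and all genotype directions rest on the labels. The irradiation labels had a check outside the members: Cdkn1a, which encodes the cell cycle inhibitor p21, was higher after irradiation by 1.42 in wild type and 1.21 in knockout (limma adjusted p = 0.00472 and 0.0223).

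Promoters of the members were read first, since the response element is the feature they are known for. The RefSeq promoter table of the assembly GRCm38.p6, which holds the bases from 250 before to 50 after a gene's start, had an entry for 31 of the 41 genes. The core of the response element was searched on both strands as GAAA, any 2 bases and GAAA again. It was present in 16 of the 31 genes (51.6%) and in 3.99% of the 27025 genes in the table. A longer form, in which CT follows the second GAAA and which always overlaps the shorter, was present in 10 of the 31 and in 0.303% of all genes in the table. The gamma-activated site, searched as TTCNNNGAA, which reads the same on both strands, was present in 6 of the 31 (19.4%) and in 9.55% of all genes.

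The 150 bases before the start that this table annotates follow for Bst2, Isg15, Oas1a and Ifit1, whose irradiation differences are described later and whose windows hold the core, and for Oasl2, the member with the lowest p for irradiation averaged over genotypes, whose window does not hold it. Capitals mark the bases of matches to the core, which read as a pair of TTTC blocks where they lie on the strand opposite to the gene. Each sequence runs 5′ to 3′ along its gene.
Bst2 (chr8:71537473-71537622, minus strand): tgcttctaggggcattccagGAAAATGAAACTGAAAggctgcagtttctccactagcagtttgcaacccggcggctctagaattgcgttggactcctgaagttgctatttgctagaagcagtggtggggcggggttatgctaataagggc
Isg15 (chr4:156200819-156200968, minus strand): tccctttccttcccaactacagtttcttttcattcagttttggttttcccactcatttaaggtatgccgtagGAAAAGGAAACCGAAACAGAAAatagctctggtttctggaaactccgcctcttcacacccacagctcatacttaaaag
Oas1a (chr5:120907526-120907675, minus strand): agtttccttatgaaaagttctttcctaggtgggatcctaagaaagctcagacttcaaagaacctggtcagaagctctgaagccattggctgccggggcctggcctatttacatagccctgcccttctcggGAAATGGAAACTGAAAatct
Ifit1 (chr19:34640739-34640888, plus strand): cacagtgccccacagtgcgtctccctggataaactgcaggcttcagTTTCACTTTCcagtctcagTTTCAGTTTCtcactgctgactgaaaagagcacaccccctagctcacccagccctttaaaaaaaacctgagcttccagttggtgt
Oasl2 (chr5:114896784-114896933, plus strand): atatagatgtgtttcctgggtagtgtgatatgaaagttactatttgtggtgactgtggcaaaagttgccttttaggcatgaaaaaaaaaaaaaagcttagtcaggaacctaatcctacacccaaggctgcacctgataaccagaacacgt

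The Isg15 promoter held 3 overlapping matches, from 78 to 57 bases before the start. In Bst2 a pair of overlapping matches lay from 130 to 115 bases before the start, and in Oas1a from 20 to 5. The 2 Ifit1 matches lay on the other strand, at 104 to 95 and at 85 to 76 bases before the start. The RefSeq gene table of the same assembly begins Oas1a and Oasl2 further upstream, so that 19 and 8 of the printed bases lie inside those genes by that table, the Oas1a matches largely among them. The Oasl2 window held 0 matches, which says only that these letters were not in it.

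In wild-type cortex the log2 differences of the members between irradiated and sham mice ran from -0.62 to 0.46 (Oasl2). The lowest was that of Epsti1, above background on 0 wild-type arrays. Of the 38 measured members, 25 were higher and 13 lower in irradiated wild type, with a median log2 difference of 0.10, beside a median of 0.01 over all genes tested. With limma, fitted over all genes and adjusted by the Benjamini-Hochberg method, 0 members were called at an adjusted p under 0.05, where 0.0746% of all genes were. At an unadjusted p under 0.05, 3 members were higher, Oasl2, Bst2 and Ifitm3 (0.746% of all genes), and 0 were lower. The arrays of the groups did not overlap for Oasl2 and Ifitm3, which were higher (0.866% of all genes), and for Parp12, which was lower (1.10% of all genes). When arrays were scaled on their median in place of the 75th percentile, all genes shifted up by 0.12 in this comparison and 35 of 38 members were higher, with a median of 0.21 that was again 0.09 above that of all genes.

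In knockout cortex the members were higher in irradiated mice almost throughout. Of 38 members 36 were higher, with a median log2 difference of 0.29 beside -0.00097 over all genes tested, and Cmpk2 and Samd9l were lower by -0.04 each. By the limma adjusted p 0 members were called (0.120% of all genes), while 14 had an unadjusted p under 0.05, all of them higher (2.49% of all genes). For 7 members the 4 irradiated arrays all lay above the 4 sham arrays: Oasl2, Bst2, Usp18, Isg15, Ifi44, Irf9 and Ifi35 (1.16% of all genes). The largest differences were those of Usp18, Oasl2 and Oas2, at 1.08, 0.90 and 0.89. The median ranged from 0.21 to 0.41 when each array was left out in turn, the lowest without replicate 1 of irradiated knockout and the highest without its replicate 3, and 31 to 36 members were higher.

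Averaged over both genotypes, 33 of 38 members were higher after irradiation, with a median of 0.19 beside 0.0043 over all genes. Oasl2 was the 1 member called at an adjusted p under 0.05 by limma, where 0.304% of all genes were called in either direction. At an unadjusted p under 0.05, 13 members were higher (2.46% of all genes) and 0 lower. Of the 38 members, 25 (65.8%) were higher in both genotypes, where 29.9% of all genes were.

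**Figure D1:**
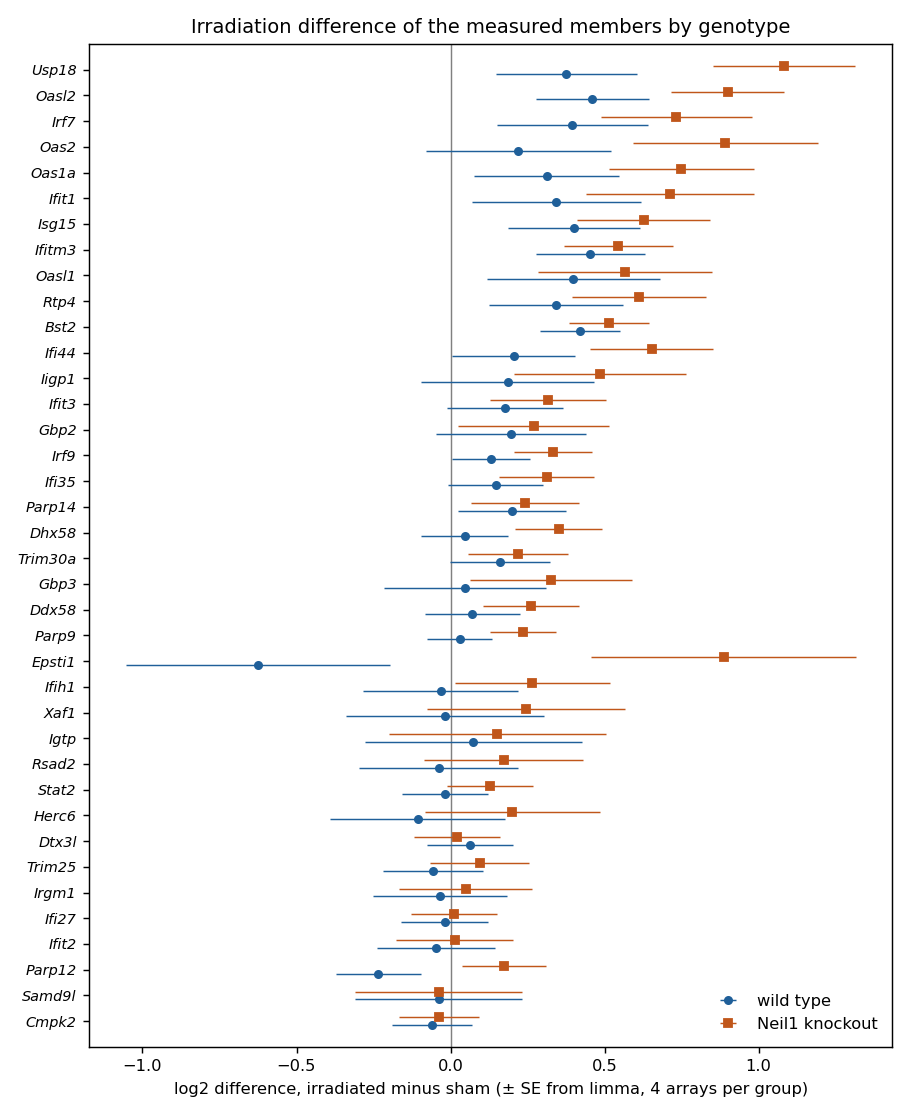
Log2 difference between irradiated and sham arrays for each measured member (points, with limma standard errors as bars), in wild type (blue circles) and knockout (orange squares), in order of the average over both genotypes. The knockout points lie right of 0 for 36 of 38 members and the wild-type points for 25.

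Among the signalling and transcription factors, Irf7, which amplifies interferon production, had the largest differences. It read -0.94, -1.33, -0.69 and -0.73 in sham wild type and -0.99, -0.30, -0.40 and -0.42 in irradiated wild type. In knockout it read -1.33, -1.48, -1.16 and -1.13 in sham and -0.05, -0.68, -1.29 and -0.14 after irradiation. Replicate 1 of irradiated wild type and replicate 3 of irradiated knockout stayed at sham level, and the other irradiated arrays lay above every sham array of their genotype. The differences were 0.40 ± 0.24 (SE) in wild type and 0.73 ± 0.24 in knockout, or 1.32-fold and 1.66-fold, and their average of 0.56 ± 0.17 had a limma adjusted p of 0.495. A further Irf7 probe gave 0.32 and 0.87.

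Irf9, a DNA-binding subunit of the complex that type I interferons activate, read -0.06, -0.18, -0.24 and -0.20 in wild-type sham and -0.31, 0.03, 0.06 and 0.06 after irradiation. Its knockout levels were -0.67, -0.30, -0.34 and -0.33 in sham and 0.07, 0.16, -0.28 and -0.25 after irradiation. The knockout groups did not overlap, but by a small margin between replicate 3 of the irradiated and replicate 2 of the sham arrays. The Irf9 differences were 0.13 ± 0.13 and 0.33 ± 0.13 (limma adjusted p of the average 0.832), and its other probe gave 0.02 and 0.13. Stat2, which encodes a further subunit of that complex, was nearly level at -0.02 in wild type and 0.13 in knockout.

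The cytosolic RNA sensors and the ligase that activates RIG-I showed small differences. All 4 were higher in irradiated knockout, with a median of 0.26, and 2 of 4 in irradiated wild type, with a median of 0.01. Dhx58, which encodes the sensor LGP2, read -4.40, -4.44, -4.53 and -4.42 in wild-type sham and -4.19, -4.53, -4.40 and -4.50 after irradiation. In knockout it read -4.42, -4.71, -4.29 and -4.17 in sham and -3.84, -3.92, -4.44 and -3.99 after irradiation, where 3 of the 4 arrays lay above all sham arrays. The averaged difference of Dhx58 was 0.20 ± 0.10 and did not pass the limma threshold (adjusted p = 1.0).

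Ddx58, which encodes RIG-I, read -2.48, -2.20, -2.03 and -1.95 in sham wild type and -2.43, -1.99, -1.97 and -1.98 in irradiated wild type. Knockout arrays gave -2.35, -2.32, -2.02 and -2.22 in sham and -1.82, -2.06, -2.29 and -1.71 after irradiation, and the groups overlapped in both genotypes. Its wild-type difference of 0.07 had no stable sign, since leaving out single arrays moved it between -0.03 and 0.18. Ifih1, which encodes the sensor MDA5, differed by -0.03 and 0.26 in wild type and knockout, and Trim25, the ubiquitin ligase of RIG-I, by -0.06 and 0.09.

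All 3 measured genes of the ISG15 system were higher in irradiated knockout and 2 of 3 in irradiated wild type. Usp18 encodes the protease that removes ISG15 from proteins and also dampens the interferon receptor. It read -4.19, -4.16, -3.84 and -3.75 in wild-type sham and -4.15, -3.35, -3.42 and -3.51 after irradiation. Knockout arrays gave -4.16, -4.50, -4.14 and -4.73 in sham and -2.69, -3.38, -3.76 and -3.38 after irradiation. Every irradiated knockout array lay above every sham array of its genotype, with replicate 1 the highest of all 16 arrays, whereas replicate 1 of irradiated wild type was at sham level. The differences were 0.38 ± 0.23 in wild type and 1.08 ± 0.23 in knockout, or 1.30-fold and 2.12-fold. Their average of 0.73 ± 0.16 had a limma adjusted p of 0.122, and without replicate 1 of irradiated wild type it was 0.82 with an adjusted p of 0.0426.

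Isg15, the ubiquitin-like modifier itself, read -0.80, -0.99, -0.43 and -0.38 in wild-type sham and -0.57, 0.07, -0.17 and -0.33 after irradiation. The knockout levels were -0.73, -1.01, -1.02 and -0.78 in sham and 0.39, -0.45, -0.72 and -0.26 after irradiation. The wild-type groups overlapped and the knockout groups did not, although replicate 3 of irradiated knockout lay just above the highest sham array. The differences of 0.40 ± 0.21 and 0.63 ± 0.21 were 1.32-fold and 1.54-fold (limma adjusted p of the average 0.452). Herc6, the ligase that attaches ISG15 in mice, differed by -0.11 in wild type and 0.20 in knockout.

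The IFIT and OAS effectors held the only member called for irradiation. IFIT proteins bind viral RNA, and oligoadenylate synthetases (OAS) sense double-stranded RNA and switch on RNase L. Of 7 measured genes 6 were higher in irradiated wild type and 7 in irradiated knockout, with medians of 0.31 and 0.71. Oasl2, an OAS-like protein with ubiquitin-like domains, rose on average over both genotypes.

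Oasl2 read -2.04, -2.11, -2.54 and -2.20 in sham wild type and -1.68, -1.71, -1.74 and -1.92 in irradiated wild type. In knockout it read -2.22, -2.65, -2.29 and -2.53 in sham and -0.94, -1.97, -1.65 and -1.54 after irradiation. All 4 irradiated arrays lay above all 4 sham arrays in each genotype, and replicate 1 of irradiated knockout stood well above the rest. The difference was 0.46 ± 0.18 (1.38-fold) in wild type and 0.90 ± 0.18 (1.87-fold) in knockout, with limma adjusted p-values of 1.0 and 0.119. Averaged over both genotypes it rose by 0.68 ± 0.13, or 1.60-fold (limma adjusted p = 0.0444). This value lay close to the threshold: the call was lost in 20 of 31 alternatives, among them the omission of any array other than replicates 1 and 2 of irradiated knockout, with adjusted p-values from 0.0139 to 0.153 and differences from 0.58 to 0.75.

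Oas1a, a synthetase of the oligoadenylates, read -2.54, -2.73, -2.39 and -2.22 in wild-type sham and -2.81, -2.11, -1.63 and -2.09 after irradiation. In knockout sham it read -3.00, -3.17, -2.56 and -2.92, and after irradiation -1.72, -2.17, -2.64 and -2.11. In wild type replicate 1 of the irradiated arrays was the lowest of all 8, and in knockout replicate 3 of the irradiated arrays lay below 1 sham array, so neither pair of groups separated. The Oas1a differences were 0.31 ± 0.24 and 0.75 ± 0.24 (limma adjusted p of the average 0.519).

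Oas2, a further synthetase, read -3.86, -4.11, -3.66 and -3.62 in wild-type sham and -4.10, -3.51, -3.15 and -3.61 after irradiation. Knockout arrays gave -4.77, -4.69, -4.73 and -4.12 in sham and -3.28, -3.24, -4.77 and -3.45 after irradiation. Of the irradiated knockout arrays 3 lay above every sham array and replicate 3 lay just below them all. The difference was 0.22 ± 0.30 in wild type and 0.89 ± 0.30 in knockout (limma adjusted p of the average 0.812), and without that replicate 3 it was 1.25 in knockout with an adjusted p of 0.0421. The remaining members of the group differed by 0.34 and 0.71 (Ifit1), 0.18 and 0.32 (Ifit3), -0.05 and 0.01 (Ifit2), and 0.40 and 0.57 (Oasl1) in wild type and knockout.

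**Figure D2:**
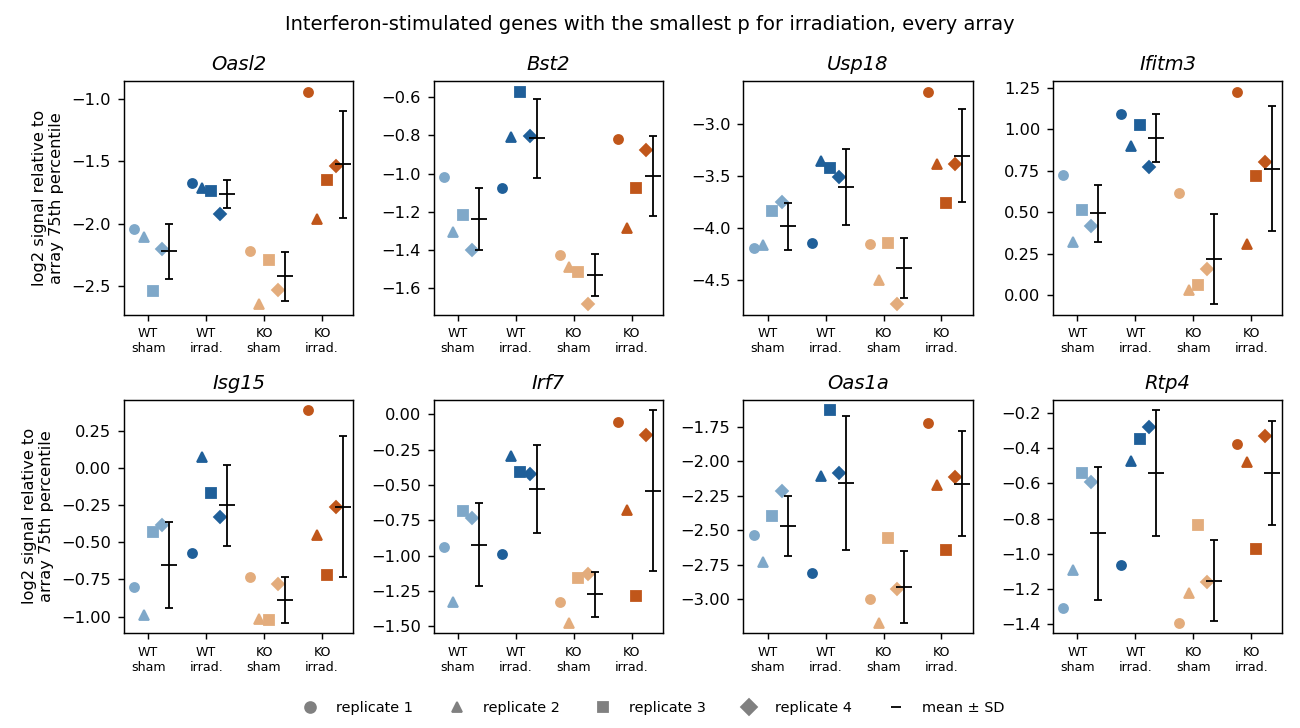
Level (log2 signal minus the 75th percentile of its array) on every array for the 8 members with the lowest p for irradiation averaged over genotypes, with the mean and SD of each group beside its 4 arrays (marker shape gives the replicate number, and each panel has its own axis). Oasl2 separates irradiated from sham arrays in both genotypes, while replicate 1 of irradiated wild type lies at sham level for Usp18, Irf7, Oas1a and Rtp4.

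Among the other antiviral effectors, 4 of 6 measured genes were higher in irradiated knockout and 3 in irradiated wild type. Bst2 encodes tetherin, which holds budding virus particles at the cell surface. It read -1.02, -1.31, -1.22 and -1.40 in wild-type sham and -1.08, -0.81, -0.57 and -0.81 after irradiation. The knockout values were -1.43, -1.49, -1.51 and -1.68 in sham and -0.82, -1.28, -1.08 and -0.88 after irradiation. Knockout groups did not overlap, and in wild type only replicate 1 of the irradiated arrays fell within the sham range. The differences were 0.42 ± 0.13 in wild type and 0.51 ± 0.13 in knockout, or 1.34-fold and 1.43-fold. Their average of 0.47 ± 0.09 just missed the limma threshold (adjusted p = 0.0503) and passed it in 9 of 31 alternatives, with adjusted p-values from 0.00759 to 0.782. Leaving out replicate 1 of wild-type sham, replicate 1 of irradiated wild type or replicate 2 of irradiated knockout was enough, with adjusted p-values of 0.0431, 0.0278 and 0.0248.

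Ifitm3, which blocks virus entry from endosomes, read 0.73, 0.32, 0.51 and 0.42 in wild-type sham and 1.10, 0.90, 1.02 and 0.77 after irradiation. In knockout sham it read 0.62, 0.03, 0.06 and 0.16, and after irradiation 1.23, 0.31, 0.72 and 0.80. The wild-type groups did not overlap, and in knockout the sham replicate 1 and the irradiated replicate 2 crossed. The Ifitm3 differences were 0.45 ± 0.18 and 0.54 ± 0.18 (limma adjusted p of the average 0.215). Ifi44, whose 4 irradiated knockout arrays all lay above the sham arrays, differed by 0.21 in wild type and 0.65 in knockout. Rsad2, which encodes viperin, differed by -0.04 and 0.17, the mitochondrial nucleotide kinase Cmpk2 by -0.06 and -0.04, and Samd9l by -0.04 in both genotypes.

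The ADP-ribosyltransferases of the PARP family and Dtx3l, the ubiquitin ligase that pairs with PARP9, moved little. Their medians were 0.05 in wild type and 0.20 in knockout. Parp14 read -2.38, -2.32, -2.12 and -2.19 in wild-type sham and -2.44, -2.01, -1.81 and -1.96 after irradiation. In knockout it read -2.73, -2.63, -2.85 and -2.56 in sham and -1.99, -2.31, -2.91 and -2.59 after irradiation, and the irradiated arrays spanned the sham range in both genotypes. The averaged difference was 0.22 ± 0.12 (limma adjusted p = 1.0).

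Parp9 read -2.71, -2.82, -2.77 and -2.84 in wild-type sham and -2.85, -2.63, -2.76 and -2.78 after irradiation. Its knockout levels were -2.83, -2.98, -2.75 and -2.69 in sham and -2.29, -2.75, -2.70 and -2.58 after irradiation. Replicate 1 of irradiated knockout was the highest of all 16 arrays and the other arrays lay close together, with an averaged difference of 0.13 ± 0.08 (limma adjusted p = 1.0). Parp12 read -2.62, -2.60, -2.63 and -2.54 in wild-type sham and -2.66, -2.67, -3.15 and -2.85 after irradiation, so that all irradiated arrays lay lower. In knockout the Parp12 levels of -2.81, -2.96, -3.14 and -2.87 in sham and -2.44, -2.73, -3.06 and -2.86 after irradiation overlapped. The wild-type difference of -0.23 ± 0.14 had an adjusted p of 1.0 by limma, and the knockout difference was 0.17 ± 0.14.

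The immunity-related GTPases and guanylate-binding proteins, which attack pathogen-containing vacuoles and respond strongly to interferon gamma, had medians of 0.07 in wild type and 0.27 in knockout. Iigp1 read -2.60, -2.83, -2.13 and -2.03 in wild-type sham and -2.76, -2.21, -2.02 and -1.84 after irradiation. In knockout it read -2.67, -2.87, -2.46 and -2.71 in sham and -1.55, -2.49, -2.91 and -1.84 after irradiation. The irradiated knockout arrays ran from below to well above the sham range, and the averaged difference was 0.33 ± 0.20 (limma adjusted p = 1.0).

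Gbp2 read -1.72, -2.13, -1.82 and -1.55 in wild-type sham and -1.87, -1.20, -1.70 and -1.66 after irradiation. The Gbp2 levels in knockout were -1.62, -2.20, -2.09 and -1.94 in sham and -0.98, -2.18, -2.14 and -1.49 after irradiation, with replicates 1 and 4 above all sham arrays and replicates 2 and 3 near the lowest of them. Its averaged difference was 0.23 ± 0.17 (limma adjusted p = 1.0). Gbp3 differed by 0.05 in wild type and 0.33 in knockout, Igtp by 0.07 and 0.15, and Irgm1 by -0.03 and 0.05.

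Of the 6 members in no other group, all were higher in irradiated knockout and 3 in irradiated wild type. Rtp4, a receptor transporter protein, read -1.31, -1.09, -0.54 and -0.59 in wild-type sham and -1.07, -0.47, -0.35 and -0.28 after irradiation. Knockout sham arrays gave -1.39, -1.22, -0.84 and -1.16 and irradiated knockout arrays -0.38, -0.48, -0.98 and -0.33. In each genotype 3 of 4 irradiated arrays lay above all sham arrays, the exceptions being replicate 1 in wild type and replicate 3 in knockout. The Rtp4 differences were 0.34 ± 0.22 and 0.61 ± 0.22 (limma adjusted p of the average 0.56).

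Ifi35, a leucine zipper protein, read -0.67, -0.77, -0.58 and -0.42 in wild-type sham and -0.93, -0.55, -0.20 and -0.18 after irradiation. Its knockout values were -1.20, -0.91, -0.88 and -0.86 in sham and -0.62, -0.59, -0.83 and -0.54 after irradiation. Knockout groups did not overlap, by a margin smaller than the spread within either group. The averaged difference of Ifi35 was 0.23 ± 0.11 (limma adjusted p = 1.0), and a further probe gave 0.19 and 0.38 in wild type and knockout. Trim30a differed by 0.16 and 0.22, Xaf1 by -0.02 and 0.24, and Ifi27 by -0.02 and 0.01.

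The members differed together from mouse to mouse within a group. For each array the median over the members of the deviation from the 16-array mean was taken, on the log2 scale. In irradiated wild type this was -0.18 for replicate 1 and 0.29, 0.22 and 0.19 for the others, and replicate 1 was the lowest of its group for 28 of 38 members. In irradiated knockout it was 0.45, 0.06, -0.21 and 0.29. Replicate 1 of irradiated knockout was the highest of all 16 arrays for 15 members, and replicate 3, with the next to lowest 75th percentile of all arrays, was the lowest of its group for 28.

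**Figure D3:**
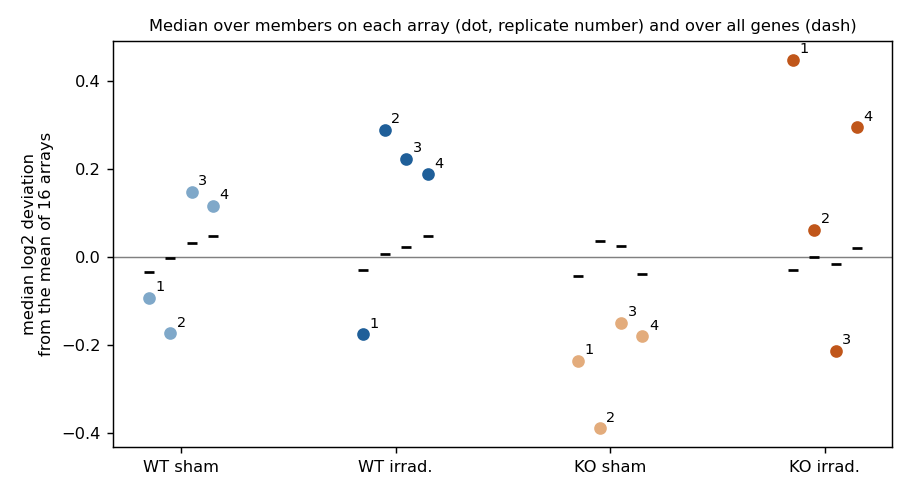
Median over the 38 measured members (dots, labelled with the replicate number) and over all genes tested (dashes) of the log2 deviation from the mean of 16 arrays, for each array. Replicate 1 of irradiated wild type (-0.18) and replicate 3 of irradiated knockout (-0.21) lie at the level of the sham arrays, while the dashes stay within 0.05 of 0.

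Sham mice varied as well. Wild-type sham arrays had medians of -0.09, -0.17, 0.15 and 0.12, and knockout sham arrays -0.24, -0.39, -0.15 and -0.18. Replicate 2 of knockout sham was the lowest of all 16 arrays for 13 members. Counted against the 4 sham arrays of the same genotype, irradiated knockout replicates 1 to 4 lay above all of them for 29, 20, 9 and 28 members, where 15.8% to 23.4% of all genes did so on an array. In wild type the counts were 3, 18, 18 and 18 members, where 15.6% to 27.3% of all genes did so. The wild-type median difference was 0.22 without replicate 1 of irradiated wild type, with 32 members higher, and 0.04 without replicate 2 of wild-type sham, with 23 higher. Without the 2 dimmest arrays, replicates 3 and 4 of irradiated knockout, the knockout median was 0.48, with 36 members higher.

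**Figure D4:**
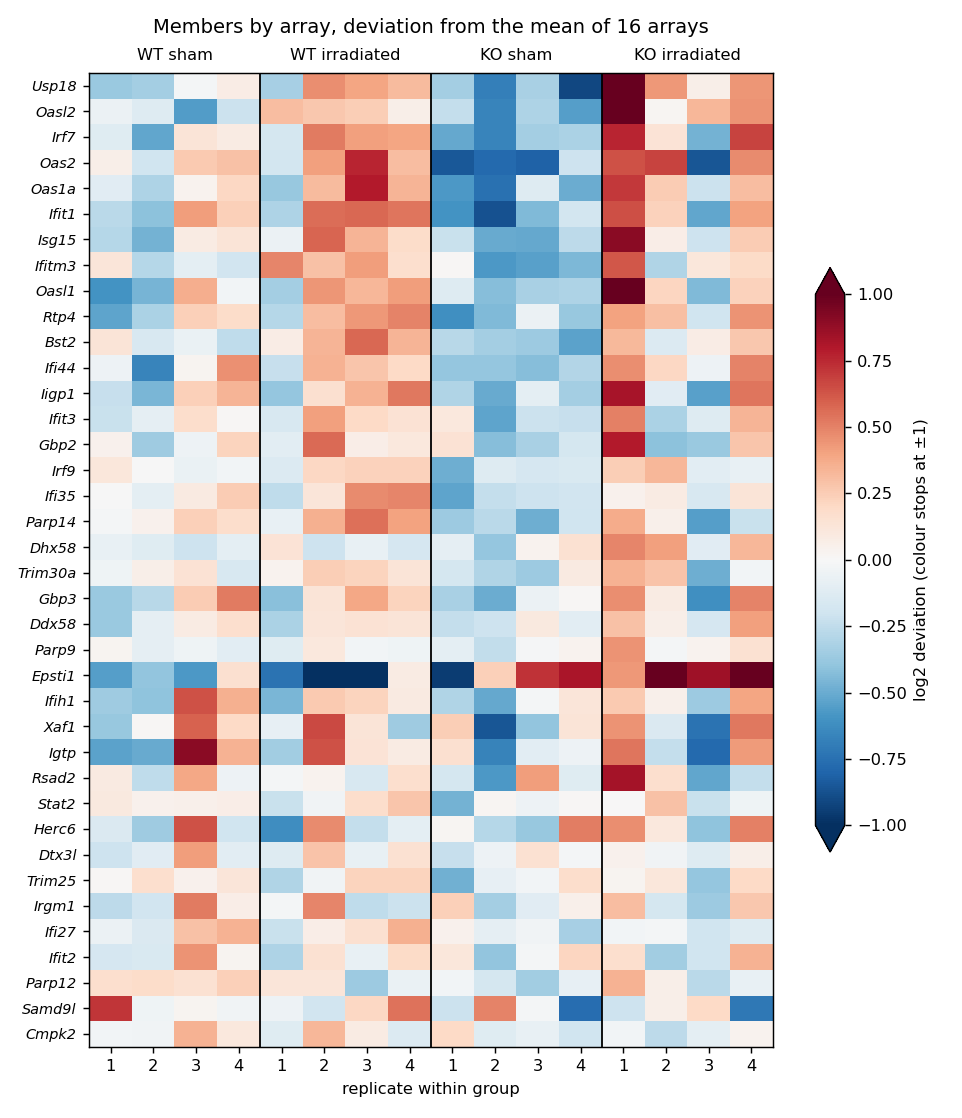
Deviation of each measured member (rows, ordered by the averaged irradiation difference) from its own mean over 16 arrays, for every array (columns, by group and replicate), as colour on a log2 scale that stops at 1 in each direction. Replicate 1 of irradiated knockout is the highest of all arrays for 15 members, and replicate 2 of knockout sham the lowest for 13.

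Between genotypes, the members were lower in knockout sham than in wild-type sham nearly throughout. Of 38 members 36 were lower, with a median of -0.23 beside -0.02 over all genes tested, and Dhx58 (0.05) and Epsti1 (0.55) were higher, the latter having passed the filter through knockout arrays only. With limma 0 were called (0.0516% of all genes), 5 had an unadjusted p under 0.05, all of them lower (3.54% of all genes), and 7 had no overlap between arrays, also lower (2.09% of all genes): Oas2, Parp12, Parp14, Ifi35, Bst2, Irf9 and Stat2. Oas2 had the largest difference, from -3.81 ± 0.23 (SD, n = 4) in wild-type sham to -4.58 ± 0.30 in knockout sham, or -0.76 ± 0.30 (SE; limma adjusted p = 0.559). Parp14 lay at -2.25 ± 0.12 and -2.69 ± 0.13, and Parp12 at -2.60 ± 0.04 and -2.94 ± 0.14.

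Marker lists of other cells differed between the sham groups as well. Cortical neuron markers were higher in knockout sham for 11 of 12 measured genes, with a median of 0.21 and 0 called, and their summed level (log2 of the summed signals over the 75th percentile) was 7.76 to 7.90 in wild-type sham and 8.02 to 8.23 in knockout sham, without overlap. After irradiation 11 of 12 were higher in knockout too. Oligodendrocyte markers were lower in knockout sham for 9 of 10 genes, and astrocyte markers for 6 of 12. The part of these cells in the member values was not tested.

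The direction in sham held under each other background correction and scaling, but its extent moved. With normexp background correction 29 of 38 members were lower, with a median of -0.15 beside 0.03 for all genes. The number without overlap was 3 when arrays were scaled on their median, with the share of all genes under that scaling not given here. Without replicate 3 of wild-type sham 30 members were lower, with a median of -0.16.

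After irradiation the direction between the genotypes was not settled. In irradiated knockout 16 members were higher and 22 lower than in irradiated wild type, with a median of -0.01 beside -0.03 over all genes. Leaving out 1 array moved the median between -0.15, with 9 higher, without replicate 1 of irradiated knockout and 0.15, with 30 higher, without its replicate 3. Array against array in the same slide column, 37, 9, 4 and 22 members were higher in knockout in columns 1 to 4. With arrays scaled on their median, which moved all genes by -0.23 here, 5 were higher and 33 lower, at a median of -0.21. Epsti1 was past the limma threshold (log2 difference 2.06, adjusted p = 0.0357; 1.18% of all genes were) and was the 1 member whose arrays did not overlap between genotypes after irradiation (4.30% of all genes, higher). It had entered the test only through the knockout arrays on which it was above background, so these values describe it and support no difference.

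Epsti1, named for epithelial and stromal interaction in breast, was too dim for its size of change to be read. It read -7.63, -7.48, -7.66 and -6.93 in sham wild type and -7.82, -8.69, -8.69 and -7.00 in irradiated wild type, and was above background on 0 arrays of either group. In knockout it read -8.03, -6.85, -6.37 and -6.27 in sham and -6.66, -5.57, -6.24 and -5.51 after irradiation, and was above background on 2 of 4 arrays of each. In sham the genotypes overlapped, with replicate 1 of knockout below every wild-type array (limma adjusted p = 0.84). Set against the lowest signal above background on each dim array, irradiated knockout lay 1.88-fold above irradiated wild type (group means -5.99 and -8.05). Only 2 of the 4 irradiated knockout arrays were above background, so this fold is no lower bound and supports no difference. No member was called when replicate 2 of wild-type sham, replicates 2 or 3 of irradiated wild type, or replicates 2, 3 or 4 of irradiated knockout were left out.

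**Figure D5:**
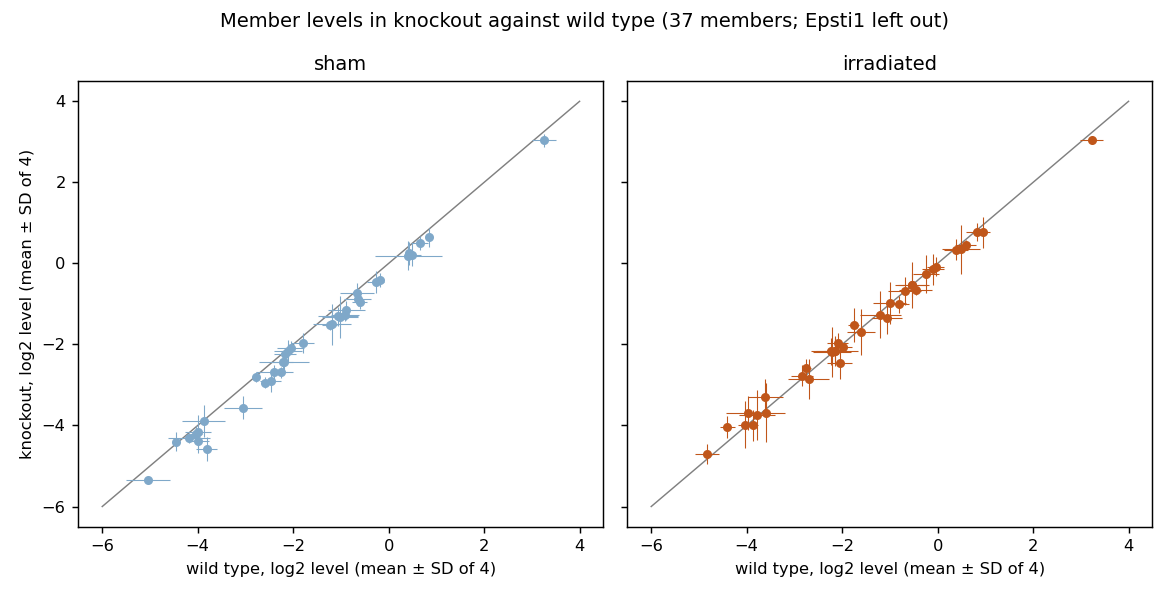
Mean log2 level of each member in knockout (vertical axis) against wild type (horizontal axis), with the SD of 4 arrays as bars, in sham (left) and irradiated cortex (right). Epsti1, above background on no wild-type array, is left out, and points below the diagonal line of equality are members lower in knockout. In sham 36 of the 37 plotted members lie below the line.

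The test of whether irradiation acted differently in the genotypes is the interaction, the knockout difference minus the wild-type difference. It was above 0 for 36 of 38 members, with a median of 0.20 beside -0.01 over all genes tested. Among the 32 members below the median level of all genes it was above 0 for 30, where 58.8% of genes of that level were. Marker lists of other cells showed this as well in part. The interaction was above 0 for 10 of 10 oligodendrocyte, 15 of 15 endothelial and 13 of 15 monocyte, macrophage and dendritic cell markers. It was above 0 for 8 of 22 microglial and 4 of 12 cortical neuron markers. By limma 0 members and 0 of all genes were called. At an unadjusted p under 0.05, 2 members were higher, Epsti1 and Usp18 (0.964% of all genes), and 0 lower. Epsti1 had entered the test only through knockout arrays and was above background on 0 wild-type arrays, so its interaction supports no difference. Usp18 had an interaction of 0.71 ± 0.32 (limma adjusted p = 1.0), Oas2 of 0.67 ± 0.43 and Parp12 of 0.41 ± 0.19.

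The number above 0 depended on the scaling. With arrays scaled on their median, which moved the interaction of all genes to -0.18, 21 of 38 members were above 0 with a median of 0.03, so that the members again lay 0.22 above all genes. The irradiation differences in both genotypes, the genotype differences and the interaction use the same 16 arrays, so the lower sham level and the larger difference in knockout are not separate observations.

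Members with further probes gave mostly the same direction. Of those with another kept probe, Oasl1 gave 0.32 and 1.07 in wild type and knockout, Parp14 gave -0.16 and 0.78, and Ddx58 gave 0.15 and 0.17 on a second probe and -0.13 and 0.70 on another. The probes of Oasl1 and Parp14 and the last of Ddx58 were dim, at mean levels of -6.26, -6.47 and -6.33. They were above background on 12, 11 and 13 arrays, so the size of their differences is uncertain. Stat2 gave -0.46 and 0.67 on its second probe, well apart from the values above. The second probes of Rsad2 and Trim25 were above background on 4 arrays each and gave -0.62 and 1.02, and 0.40 and 0.01. Members whose mean level lay below the median of all genes (32) had a median difference of 0.32 in irradiated knockout, where genes of that level had 0.02, and the 6 brighter members had 0.11, where genes of that level had -0.02.

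Grouped by promoter, the 15 measured members with the response element core had a median averaged irradiation difference of 0.19, with 15 of 15 higher. The 15 without it had a median of 0.11 with 11 higher, and for the 8 whose promoter is not in the table the median was 0.28 with 7 higher. Oasl2, Irf7 and Ifi44 were among those without a match.

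Outside the members, 0 genes of the 4 further pathway lists were called by limma in any of the comparisons above, nor in the interaction. Of 21 interferon genes 7 were measured, and Ifnb1 and Ifng, which encode interferon beta and gamma, were above background on 0 arrays. Of the 7, which included Ifna2 and Ifnl3, 1 was higher after irradiation in each genotype and 0 were called. All 17 receptors and proximal signalling genes were measured, of which 7 were higher in irradiated wild type and 5 in irradiated knockout, with medians of -0.04 and -0.06 and 0 called. Irf8, a transcription factor of microglia and other myeloid cells, averaged -0.25 ± 0.10 (SE; limma adjusted p = 0.844), and the receptor subunit gene Ifnar1 averaged -0.15 ± 0.18.

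Of 20 genes that sense nucleic acid upstream of interferon, 19 were measured and 0 called. Zbp1, a sensor of nucleic acid in the Z conformation that is itself induced by interferon, had the lowest p, with differences of 0.55 in wild type and 0.95 in knockout and an average of 0.75 ± 0.17 (SE; limma adjusted p = 0.128). Tlr3, the endosomal receptor for double-stranded RNA, averaged -0.31 ± 0.13 and did not pass (adjusted p = 0.87).

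A second list of 58 other interferon-induced genes, 47 of them measured, followed the members in knockout. In irradiated knockout 39 of 47 were higher with a median of 0.22, in irradiated wild type 25 with a median of 0.01, and in knockout sham 32 were lower than in wild-type sham with a median of -0.18, with 0 called in each. Slfn2, a Schlafen family gene, had differences of 0.50 in wild type and 0.43 in knockout, and Tgtp2, a T cell GTPase, 0.36 and 0.80, with averages of 0.47 ± 0.16 and 0.58 ± 0.23 (limma adjusted p = 0.691 and 0.856).

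Markers of other cells were set beside these values, since in whole cortex fewer cells of a type and less RNA per cell cannot be told apart. Markers of infiltrating monocytes, macrophages and dendritic cells, 15 of 19 measured, moved alongside the members where knockout sham arrays were compared. Of these markers 14 of 15 were lower in knockout sham than in wild-type sham, and 13 of 15 were higher in irradiated than in sham knockout, with 0 called. Both counts use the knockout sham arrays, so they are not separate observations. In irradiated wild type 10 of 15 were higher, with a median of 0.05. The summed level of these markers ran from 3.17 to 3.49 in wild-type sham, 3.22 to 3.58 in irradiated wild type, 2.70 to 3.32 in knockout sham and 3.08 to 3.61 in irradiated knockout. From 70.4% to 87.1% of that sum on an array was the single probe of Ly6c2, a close paralogue of the endothelial marker gene Ly6c1, so the sum says little of the other 14 genes. Without Ly6c2 it ran from 0.45 to 1.07, 0.50 to 1.06, 0.15 to 1.56 and 0.68 to 1.11 in the same order. Of its defining markers Ccr2 was above background on 3 arrays, and Clec9a and Xcr1 on 0. Lymphocyte markers, 11 of 18 measured, ran from 2.87 to 3.21, 3.01 to 3.29, 2.66 to 3.26 and 2.96 to 3.38 in the same order, and Cd3g, Cd8a and Cd79a were above background on 0 arrays. Klrb1c made up 70.9% to 90.3% of that sum. Of the 11 measured lymphocyte markers 5 were higher in irradiated wild type, 8 in irradiated knockout and 7 on average over genotypes. The 2 called on average went the other way. Il7r, the interleukin 7 receptor, and Cd79b, a subunit of the B cell receptor, fell after irradiation by 0.98 and 0.74 on average over genotypes (limma adjusted p = 0.00217 and 0.00409), without overlap in either genotype. Their part in the member values was not tested.

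Endothelial markers were lower in knockout sham than in wild-type sham for 11 of 15 and higher in irradiated than in sham knockout for 10 of 15, with summed levels of 5.17 to 5.54, 5.23 to 5.48, 5.03 to 5.37 and 4.84 to 5.45. In irradiated wild type 6 of 15 were higher, with a median of -0.07. Choroid plexus and meningeal markers were lower in knockout sham for 11 of 12 and higher in irradiated knockout for 8 of 12, with summed levels of 5.70 to 5.98, 5.80 to 6.02, 5.80 to 6.14 and 5.40 to 6.47. Oligodendrocyte markers were lower in irradiated wild type for 10 of 10 and higher in irradiated knockout for 9 of 10. Microglial markers, all 22 measured, went the other way from the members, with 1 called in each genotype: 18 of 22 were lower in irradiated wild type and 16 of 22 in irradiated knockout, with summed levels of 6.51 to 6.73, 6.39 to 6.52, 6.36 to 6.63 and 6.33 to 6.53. The marker called in each genotype, P2ry12, a purinergic receptor of resting microglia, fell by 0.62 in wild type and by 0.76 in knockout (limma adjusted p = 0.0357 and 0.00525). What share these cells had in the interferon-stimulated genes was not tested.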

How the data were processed

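Total RNA of 16 cortices was measured on single-colour Agilent arrays. Per the file headers, the authors extracted each array with Agilent Feature Extraction 12.0.3.1, and the deposited processed signal is a background-subtracted, detrended intensity that was not scaled between arrays. Flags in the deposited files mark spots that were saturated, outlying or well above background. A further deposited table holds a score per feature, with its making not given in the sources used here. Each of its columns followed the log signal of its own array, and it served as an alternative only.

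Here log2 processed signal minus the array's 75th percentile was used. Control spots and outlier spots were left out and spots of 1 probe averaged. A probe was kept when well above background on at least 4 arrays (39588 of 56605 probes), and a GRCm38.p6 gene table named 32994 of the 35886 probes that carry a RefSeq accession. The array design used an older assembly, so that table gave names only, and promoter coordinates are its own. The brightest kept probe stood for a gene. The 17436 genes were fitted with limma 3.58.1 (R 4.3.3) over all 16 arrays with 1 mean per group and 12 residual degrees of freedom. Two-sided p-values were adjusted by the Benjamini-Hochberg method within each of 6 comparisons, and the threshold for a call was an adjusted p of 0.05. The fit was tested on simulated data in which each gene varied independently, so that test does not cover members that vary together by array. The 4 mice of a group limit the precision, and 4 against 4 arrays without overlap have an exact permutation p of 0.0286, the smallest possible.

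The members, their role groups, the other gene lists and the tests were chosen with earlier results of these data known. Values on every array are given for called members, for up to 2 members per role group with the lowest unadjusted p for the averaged irradiation difference, and for the 3 with the lowest p in each genotype and interaction comparison. For a gene below background throughout the dimmer group, each dim array took the higher of its own signal and the lowest above background. The resulting fold is no lower bound where some arrays of the brighter group are below background too. Replicate numbers equalled slide columns, so the replicate block is also a column block. The labels do not say that a number marks a shared litter or day, and not every pair reached a correlation of 0.1, so the mice were taken as unpaired: same-numbered sham and irradiated arrays correlated in their deviations with r from -0.60 to 0.20 in wild type and from 0.05 to 0.52 in knockout (mean 0.30, against -0.11 for different numbers). The alternatives were normexp background correction (offset 50, on median spot signals since the files hold no mean), other scalings, filters and probe rules, other variance models, array weights, the replicate block, the deposited scores, and leaving out arrays.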

Additional observations from a re-analysis of the deposited data

Results flagged for a closer look

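A single array stood apart from the other 3 of its group in 6 of 80 sets of 4 arrays examined (the 4 groups of 19 members described array by array, and of the median over the members), by the ratio of the gap to the nearest array over the whole range (above Dixon's 95% critical value for 4 samples). Chance gives such a gap in about 1 in 20 groups. Irf9 was low in replicate 1 of irradiated wild type (-0.31, nearest 0.03) and in replicate 1 of knockout sham (-0.67, nearest -0.34). Ddx58 was low in replicate 1 of irradiated wild type (-2.43, nearest -1.99). Ifi35 was low in replicate 1 of knockout sham (-1.20, nearest -0.91). Oas2 was high in replicate 4 of knockout sham (-4.12, nearest -4.69) and low in replicate 3 of irradiated knockout (-4.77, nearest -3.45). The cause of these gaps was not tested.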

How the results depend on the processing

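The median over the members kept its sign in irradiated knockout, in the averaged irradiation difference, in the sham genotype comparison and in the interaction under every alternative run, from 0.11 to 0.48, 0.04 to 0.28, -0.31 to -0.15 and 0.03 to 0.37, while in irradiated wild type it ran from -0.02 (the 6 members brighter than the median gene) to 0.22. Single calls were less stable, and the cause was not tested. The counts of members called or without overlap below stand without the share of all genes under the same alternative. They therefore describe the stability of the member counts only. For the averaged irradiation difference 0 members were called with quantile normalization, array-median scaling, no filter on dim probes, the deposited scores and without the 2 dimmest arrays, 2 with normexp, with probes above background on all 16 arrays and with the mean of a gene's probes, 4 with array weights, and 0 to 2 when single arrays were left out. The labels do not say that replicate numbers pair the mice, so the replicate block was an alternative only. It gave 2 calls as a fixed term (Ifitm3 and Oasl2) and 2 as a random block (Bst2 and Oasl2, consensus correlation 0.115), and changed no other call. For irradiation in knockout 1 member was called with normexp, and 0 to 1 without single arrays. For genotype after irradiation 3 were called with normexp or when every probe was tested, 0 to 1 without single arrays, and 0 with quantile normalization, array-median scaling, probes above background on all 16 arrays, a fit of the compared groups only, the deposited scores and without the 2 dimmest arrays, and the median was -0.21 with array-median scaling. Members lower without overlap in knockout sham numbered 4 with the percentile over probes above background on all arrays or the mean of probes, and 3 with array-median scaling, which also left 3 higher without overlap in irradiated knockout. With the deposited scores 1 was higher without overlap in irradiated wild type. The median for genotype after irradiation, -0.01, ran from -0.15 to 0.15 without single arrays, with 9 to 30 members higher. Among the irradiation differences of the 19 members described array by array, signs turned for 5: Epsti1 averaged -0.068 with array weights and -0.062 to 0.24 without single arrays, Parp12 averaged 0.063 without the 2 dimmest arrays and -0.086 to 0.022 without single arrays, and in wild type Ddx58 ran from -0.034 to 0.18, Dhx58 from -0.027 to 0.090 and Parp9 from -0.013 to 0.062 without single arrays.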
